A study of Mus musculus with 12 samples.

Results

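YAP and TAZ are transcriptional coactivators that carry the output of the Hippo pathway, and 10 of the 54532 genes in the expression table of this study are described here: both coactivator genes and 8 of their known target genes. The members were chosen by gene symbol: Yap1, Wwtr1 (which encodes TAZ), Ctgf, Cyr61, Ankrd1, Amotl1, Amotl2, Ajuba, Lats2 and Nuak2. The choice was made with earlier results of these data known. Shares of members set beside shares of all genes are therefore a description and not a test. Ctgf and Cyr61 are older symbols for Ccn2 and Ccn1. The cells were MC38, a line established from a mouse colon tumour, and RNA was sequenced from 12 cultures that formed 4 groups with 3 libraries in each. The combination group received nintedanib at 3 µM and X-rays at 8 Gy, the nintedanib group the drug alone at 3 µM, the radiation group 8 Gy alone, and the control group was labelled only as control. Drug and X-rays each carry a label of 24 hours, the control has no time in its label, and the design text describes independent repeats. Nintedanib blocks receptor tyrosine kinases, among them those for PDGF, VEGF and FGF. All groups are the same line, and no transgene or deletion is named in the labels.

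In the Hippo pathway, the MST kinases activate the LATS kinases, which phosphorylate YAP and TAZ and keep them out of the nucleus. Unphosphorylated YAP and TAZ enter the nucleus, bind TEAD transcription factors and raise the transcription of genes for matrix proteins, cytoskeletal regulators and of several of their own inhibitors. This control acts mostly on the proteins, through phosphorylation, location and decay, and it responds to cell density, stiffness and tension. Transcript levels of Yap1 and Wwtr1 therefore say little about YAP and TAZ activity, and no protein was measured here.

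TEAD factors recognise a short DNA motif, GGAATG, which reads CATTCC on the other strand. The 250 bases before the transcription start were searched for it on both strands in RefSeq promoters of GRCm38.p6, where 8 of the 10 members had an entry. It was present in 6 of those 8 members (Yap1, Wwtr1, Cyr61, Ankrd1, Amotl2 and Ajuba), and 12.6% of all 32851 promoter windows of this length held it. Ankrd1 and Ajuba held it at 2 positions, and 1.02% of all windows held it at 2 or more. The 8 members had 10 windows, 2 each for Wwtr1 and Lats2, so a count of genes and a share of windows differ in unit. Cyr61 and Ajuba are printed whole because their windows contain no annotated exon and both genes were lower after radiation. The motif is in capitals, each sequence runs 5′ to 3′ on the gene's strand, and the last base printed is the one before the start.
Cyr61 (chr3:145649986-145650235, minus strand): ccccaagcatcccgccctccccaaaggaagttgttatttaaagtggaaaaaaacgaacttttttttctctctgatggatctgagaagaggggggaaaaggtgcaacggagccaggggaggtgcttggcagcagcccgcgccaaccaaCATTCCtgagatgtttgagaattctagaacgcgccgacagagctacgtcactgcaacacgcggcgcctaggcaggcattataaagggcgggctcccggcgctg
Ajuba (chr14:54577662-54577911, minus strand): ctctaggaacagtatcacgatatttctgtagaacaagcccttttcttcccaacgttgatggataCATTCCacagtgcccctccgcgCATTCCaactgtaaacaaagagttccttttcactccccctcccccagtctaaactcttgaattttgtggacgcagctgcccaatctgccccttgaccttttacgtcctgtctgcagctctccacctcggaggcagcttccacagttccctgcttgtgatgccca

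Ctgf also fell after radiation but, like Nuak2, had no promoter entry. For Ankrd1 and Amotl2, the other members that fell, 30 bases around each match are shown, since those windows overlap exons of longer transcripts.
Ankrd1, 210 bases before the start (chr19:36120037-36120066, minus strand): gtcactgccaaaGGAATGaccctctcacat
Ankrd1, 123 bases before the start (chr19:36119950-36119979, minus strand): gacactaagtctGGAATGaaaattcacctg
Amotl2, 65 bases before the start (chr9:102717727-102717756, plus strand): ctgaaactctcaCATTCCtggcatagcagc
The match in Cyr61 began 103 bases before its start and those in Ajuba 186 and 164 bases before its start. Members not called lower after radiation held the motif too: Yap1 141 bases before its start, and Wwtr1 136 and 170 bases before its 2 starts. The windows of Amotl1 and Lats2 did not hold these letters. The AP-1 motif TGANTCA, in 6.75% of all windows, and the SRF CArG box, in 1.47%, were not found in any of the 8 members' windows, so no match overlapped another motif. A match describes the letters of the reference genome and not a bound site.

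**Figure D1:**
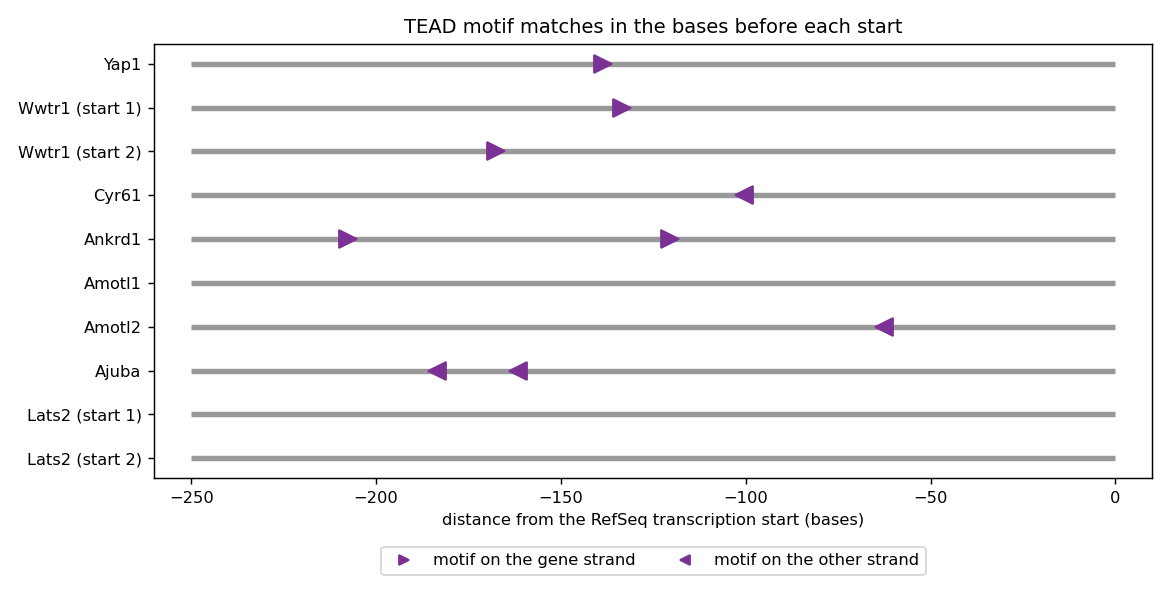
Positions of the TEAD motif in the 250 bases before each RefSeq transcription start of 8 members (horizontal axis: distance from the start in bases; arrowheads: motif on the gene's strand or the other strand). Ankrd1 and Ajuba have 2 matches each, and Amotl1 and Lats2 have none in these windows.

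Libraries held 16103528 to 18196615 fragments. By the depth that the FPKM values imply, an FPKM of 1 in a gene of 1 kilobase rested on 16.4 to 18.7 fragments. This implied depth was below the fragment total in every control and above it in every treated library, and the labels and headers do not state the scaling. Against control, scaling by the totals instead raised the median log2 fold change of all genes by 0.05 for nintedanib, 0.05 for radiation and 0.06 for the combination. All 10 members passed the filter on low values, which kept the 13012 genes that reached 1 FPKM in 3 or more libraries. Members rested on 162 to 7651 fragments per library, the fewest for Ctgf and the most for Cyr61. The mesenchymal markers Vim and Fn1 were at 498 to 618 and 45.9 to 73.2 FPKM, whereas Zeb1 (4.25 to 6.77 FPKM) and Cdh2 (3.51 to 5.02 FPKM) were low. S100a4 ranged from 5.05 to 203 FPKM over all libraries, and from 5.05 to 193 FPKM within the nintedanib group. No library had a value above 0 for the epithelial gene Epcam and Krt8 reached at most 0.601 FPKM, so defining epithelial markers of a colorectal cell were absent or near 0. The 7 epithelial markers summed to 8.43 to 9.16 FPKM with the combination, 5.04 to 6.05 with nintedanib, 5.52 to 6.18 with radiation and 4.30 to 5.01 in controls, nearly all from Cdh1 (4.12 to 8.73 FPKM), and the part of this shift in the results below was not tested. The 5 leukocyte markers summed to 16.2 to 19.5 FPKM with the combination, 13.6 to 14.4 with nintedanib, 4.30 to 5.43 with radiation and 3.55 to 4.6 in controls, but nearly all of this was Cd68, a lysosomal gene, while Cd3e was listed at 0 and Ptprc reached 0.0292 FPKM. The 5 fibroblast markers, of which 4 were tested and 1 was listed at 0, summed to 63.1 to 92 FPKM with the combination, 69.4 to 86.8 with nintedanib, 77.9 to 86.7 with radiation and 80.8 to 84.3 in controls. Most of this sum was Col3a1 (53.5 to 79.9 FPKM). Within them Pdgfra rose with the combination (log2 fold change 0.73), nintedanib (0.89) and radiation (0.39), and Dcn with the combination (0.73) and nintedanib (0.55). Col3a1 (-0.18, -0.16 and -0.03 with the combination, nintedanib and radiation) and Col1a1 (-0.05, -0.05 and 0.13) were not called. Of the 4 endothelial markers only Tek was tested (0.610 to 2.02 FPKM). It was called higher with the combination than with radiation (0.45, limma adjusted p = 0.0382), which was lost with a common sum of FPKM. The part of these markers in the results was not tested. The third nintedanib library stood apart in a small RNA gene, Gm23935, with 609.9 FPKM in it against 12846 to 32372 FPKM in the remaining libraries, and results that changed without any one library are named below.

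The coactivator genes themselves moved little. Yap1 was at 14, 13.9 and 13.4 FPKM with the combination, 14.4, 15.2 and 13.2 FPKM with nintedanib, 12.6, 12.8 and 13.9 FPKM with radiation, and 14.1, 13.2 and 15.6 FPKM in controls. The groups overlapped, and the log2 fold change was -0.11 (SE 0.0737) for radiation, the furthest from 0 of the 3 comparisons with control. Differences are on the log2(FPKM + 1) scale and were tested with limma across all 13012 genes, with Benjamini-Hochberg adjustment and a threshold of 0.05. Wwtr1 was at 38.9, 38.1 and 32.8 FPKM with the combination, 33.5, 33.8 and 32.9 FPKM with nintedanib, 40.4, 38.6 and 42.6 FPKM with radiation, and 35.9, 35.0 and 35.8 FPKM in controls. All 3 radiation libraries were above all 3 controls, but the difference was not called (log2 fold change 0.18, SE 0.0704, limma adjusted p = 0.0955). Without the third combination library, which takes part in the shared estimate of spread, it passed (limma adjusted p = 0.0489), as it did after rescaling to a common sum of FPKM (0.0427) and by library totals (0.0419). Per base of gene model length, Wwtr1 was the more abundant of both genes in every library.

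**Figure D2:**
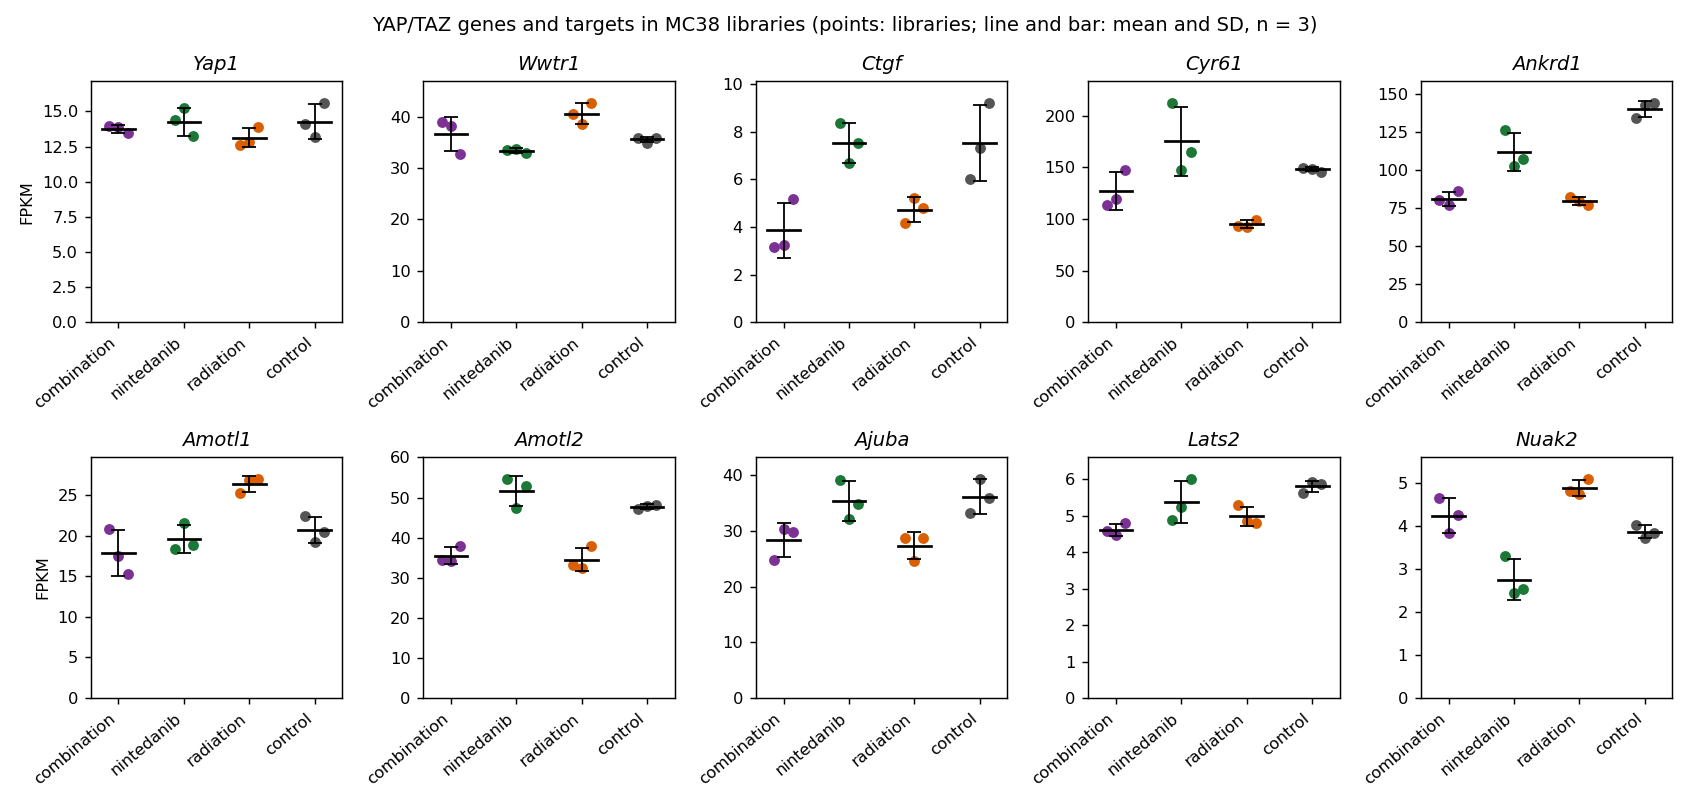
FPKM (vertical axis, from 0) of the 10 members in each library, by group (points: libraries; line and bar: mean and SD, n = 3 per group). Ctgf, Cyr61, Ankrd1, Amotl2, Ajuba and Lats2 are lower in all radiation libraries than in all controls, and the groups of Yap1 overlap.

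Irradiated and control cultures were compared for the effect of X-rays alone. Of the 10 members, 5 fell (Ctgf, Cyr61, Ankrd1, Amotl2 and Ajuba) and 1 rose (Amotl1), or 4 and 3 under 2 of 3 other scalings (below), against 17.9% of all genes tested that were called in this comparison, 9.9% lower and 8.04% higher. The median log2 fold change of the members was -0.29, and that of all genes tested -0.04. These are shares of the RNA in a culture, so fewer cells transcribing a gene and less RNA per cell cannot be told apart. Groups did not overlap for 9 of 10 members, 3 higher and 6 lower, against 41.8% of all genes, 17.4% higher and 24.3% lower.

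Among the secreted and nuclear targets, Ankrd1 changed most. This gene encodes a stretch-responsive ankyrin repeat protein of the nucleus and sarcomere (chromosome 19, 36111965 to 36119844). It stood at 82.4, 79.6 and 76.9 FPKM with radiation and at 134, 143 and 144 FPKM in controls. Every irradiated library lay well below every control, with a log2 fold change of -0.81 (SE 0.0831, limma adjusted p = 0.000197).

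Cyr61 encodes a secreted matricellular protein that binds integrins (chromosome 3, 145646976 to 145649981). It was at 93.1, 92.5 and 99.3 FPKM with radiation and at 149.6, 149 and 146 FPKM in controls. The groups were tight and far apart, with a log2 fold change of -0.64 (SE 0.127, limma adjusted p = 0.00719). Ctgf, its relative in the CCN family and an inducer of matrix production (chromosome 10, 24595442 to 24598683), was expressed at a far lower level. It stood at 4.17, 5.20 and 4.81 FPKM with radiation and at 6.02, 7.33 and 9.21 FPKM in controls. The groups did not overlap, but the controls were spread (a coefficient of variation of 21.3%, against 1.28% for Cyr61), and Ctgf passed narrowly (log2 fold change -0.56, SE 0.168, limma adjusted p = 0.0410). By voom on fragments, which has no pseudocount of 1 to compress a low gene, Ctgf fell by 0.65 on the log2 scale. The Ctgf call was lost without the second control (limma adjusted p = 0.0955), the third control (0.147), or the first (0.121), second (0.0740) or the third (0.0866) radiation library.

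Several targets of YAP and TAZ encode proteins that feed back on them. Amotl2 encodes an angiomotin that binds YAP at junctions and actin (chromosome 9, 102716672 to 102733418). It stood at 33.2, 32.5 and 37.9 FPKM with radiation and at 47.0, 48.0 and 48.2 FPKM in controls, so that the groups were clearly separate (log2 fold change -0.46, SE 0.0778, limma adjusted p = 0.00305). Amotl1, its paralogue in the same family (chromosome 9, 14541966 to 14645056), went the other way. It was at 25.3, 27.0 and 27.1 FPKM with radiation and at 22.5, 19.3 and 20.5 FPKM in controls. All irradiated libraries were higher (log2 fold change 0.34, SE 0.105, limma adjusted p = 0.0466), but the call was lost without any one control (limma adjusted p = 0.0528, 0.150 and 0.121 for the first, the second and the third), any one radiation library (0.0763, 0.132 and 0.115) or the second combination library (0.0606).

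Ajuba encodes a LIM protein that binds and restrains LATS kinases (chromosome 14, 54567472 to 54577558). It was at 28.7, 24.6 and 28.8 FPKM with radiation and at 33.2, 39.4 and 35.9 FPKM in controls. The groups did not overlap (log2 fold change -0.39, SE 0.105, limma adjusted p = 0.0264), and the call was lost without the second control (limma adjusted p = 0.0971), the third control (0.0732) or the second radiation library (0.109). Lats2, a LATS kinase gene (chromosome 14, 57689662 to 57758388), was at 5.28, 4.87 and 4.80 FPKM with radiation and at 5.63, 5.92 and 5.86 FPKM in controls. These values did not overlap, yet the log2 fold change of -0.19 was not called (SE 0.0719, limma adjusted p = 0.0975).

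Nuak2 encodes an AMPK-related kinase that promotes actomyosin tension and YAP activity (chromosome 1, 132316126 to 132333488). It stood at 4.80, 4.74 and 5.10 FPKM with radiation and at 4.03, 3.73 and 3.84 FPKM in controls. The groups did not overlap and radiation was higher, with a log2 fold change of 0.27 that was not called (SE 0.0912, limma adjusted p = 0.0610). It passed without the first nintedanib library (limma adjusted p = 0.0247), with a common sum (0.0272), by median ratios (0.0491), by library totals (0.0302) and among protein-coding genes only (0.0457).

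Calls for Cyr61, Ankrd1 and Amotl2 after radiation held in all 20 other settings (other scalings, filters and models, and each library left out), whereas the number of members called was 3 without the second control, the third control or the second radiation library. The share of all genes called fell alike, to 10.3%, 9.63% and 8.86% in those settings. Of all genes called for radiation, 44.8% were higher, 69.8% after each library was rescaled to a common sum of FPKM and 60.0% after scaling by library totals, and the split of members called moved too. With either of these scalings 7 members were called, 4 lower and 3 higher, against 14.7% of all genes with a common sum and 16.7% by library totals. Ctgf no longer passed (limma adjusted p = 0.0815 with a common sum and 0.0553 by library totals), while Wwtr1 and Nuak2 passed as higher.

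**Figure D3:**
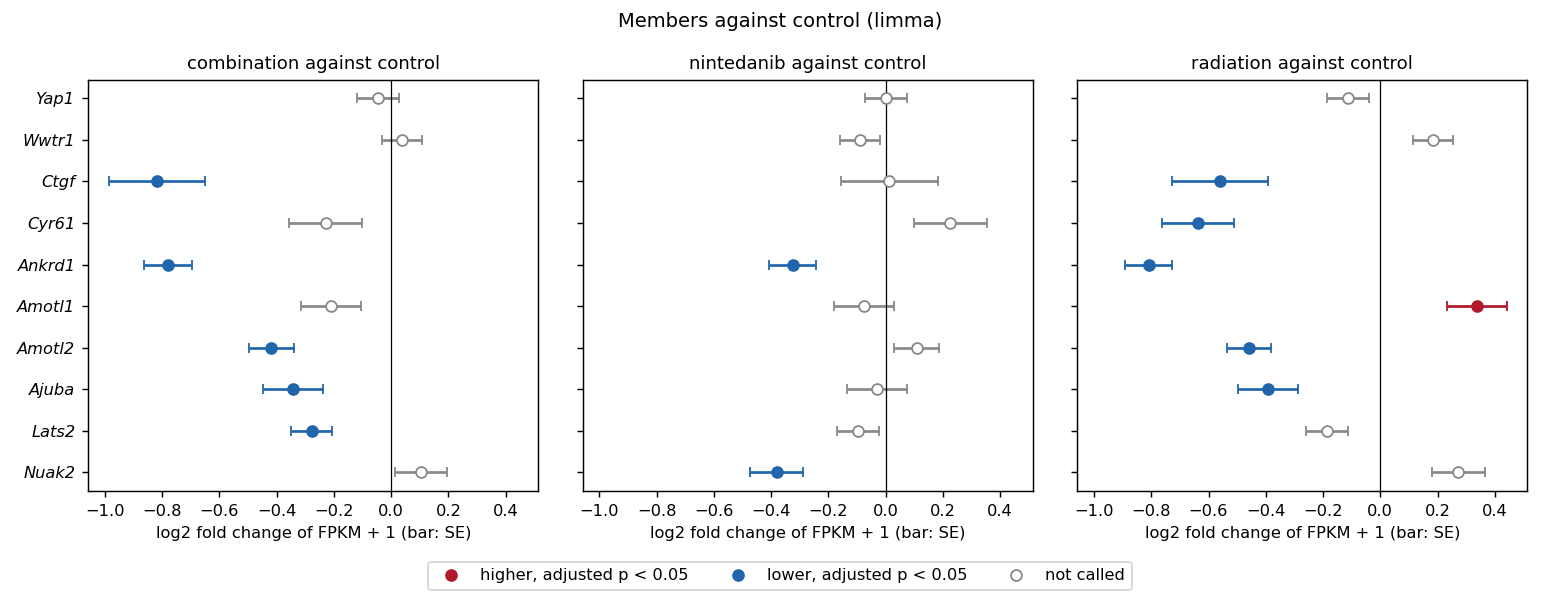
Log2 fold change of FPKM + 1 (horizontal axis, bar: SE) of the 10 members for the combination, nintedanib and radiation, each against the same 3 controls (filled: adjusted p under 0.05; open: not called). 5 members are called lower with the combination, 2 with nintedanib and 5 with radiation, and Amotl1 is called higher with radiation.

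Without irradiation, nintedanib changed 2 of the 10 members, Ankrd1 and Nuak2, both lower, against 41.6% of all genes tested that were called, 22% lower and 19.7% higher. The members' median log2 fold change was -0.05, and that of all genes -0.02. Groups did not overlap for 3 members, all lower, against 51.1% of all genes, 26.5% lower and 24.5% higher. Besides Ankrd1 and Nuak2 this was Wwtr1, which was not called (log2 fold change -0.09, limma adjusted p = 0.339). Both calls held in all 20 other settings. Of all genes called for nintedanib, 47.2% were higher, and 60.0% after rescaling to a common sum.

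Ankrd1 was at 126, 103 and 107 FPKM with nintedanib and at 134, 143 and 144 FPKM in controls, so all treated libraries were lower (log2 fold change -0.33, SE 0.0831, limma adjusted p = 0.00856). Nuak2 was at 3.29, 2.44 and 2.52 FPKM with nintedanib and at 4.03, 3.73 and 3.84 FPKM in controls, again without overlap (log2 fold change -0.38, SE 0.0912, limma adjusted p = 0.00594). By voom on fragments Nuak2 fell by 0.50 on the log2 scale.

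The other targets overlapped with control or were not called after nintedanib. Cyr61 was at 213, 148 and 165 FPKM with nintedanib and at 149.6, 149 and 146 FPKM in controls. One treated library was high and the remaining ones lay near or just above control, and the log2 fold change of 0.22 was not called (SE 0.127, limma adjusted p = 0.182). With a common sum of FPKM Cyr61 passed as higher (0.32, limma adjusted p = 0.0369), so that 3 members were called, 1 of them higher, against 39.1% of all genes. Ctgf was at 8.35, 6.68 and 7.55 FPKM with nintedanib and at 6.02, 7.33 and 9.21 FPKM in controls, with means of 7.52 FPKM in both groups. Amotl2 was at 54.7, 47.4 and 52.8 FPKM with nintedanib and at 47.0, 48.0 and 48.2 FPKM in controls, with overlap and no call (log2 fold change 0.11, SE 0.0778). Ajuba, Amotl1 and Lats2 had log2 fold changes between -0.10 and -0.03.

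With both treatments, set against control, 5 of 10 members fell (Ctgf, Ankrd1, Amotl2, Ajuba and Lats2), against 47.2% of all genes called, 25% lower and 22.3% higher. The members' median log2 fold change was -0.25, against -0.03 for all genes, and groups did not overlap for 5 members, all lower, against 56.8% of all genes, 30.1% lower and 26.7% higher. All comparisons with control share the same 3 control libraries.

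Ctgf was lowest with the combination, at 3.15, 3.23 and 5.20 FPKM, and stood at 6.02, 7.33 and 9.21 FPKM in controls (log2 fold change -0.82, SE 0.168, limma adjusted p = 0.00202). By voom on fragments it fell by 0.98 on the log2 scale, to 0.506 of control. Ankrd1 was at 80.6, 77.2 and 86.3 FPKM with the combination and at 134, 143 and 144 FPKM in controls, clearly separate (log2 fold change -0.78, SE 0.0831, limma adjusted p = 2.30e-05). Its combination and radiation values lay in the same range.

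Amotl2 was at 34.5, 34.1 and 37.9 FPKM with the combination and at 47.0, 48.0 and 48.2 FPKM in controls (log2 fold change -0.42, SE 0.0778, limma adjusted p = 0.00107). Ajuba was at 24.8, 30.5 and 29.8 FPKM with the combination and at 33.2, 39.4 and 35.9 FPKM in controls (log2 fold change -0.34, SE 0.105, limma adjusted p = 0.0186). Neither pair of groups overlapped, and the Ajuba call was lost without the second control (limma adjusted p = 0.0720) or the first combination library (0.0739). Lats2 was at 4.57, 4.47 and 4.80 FPKM with the combination and at 5.63, 5.92 and 5.86 FPKM in controls, a small fall without overlap (log2 fold change -0.28, SE 0.0719, limma adjusted p = 0.00803). The Lats2 call was lost with a common sum of FPKM (limma adjusted p = 0.0871), which left 4 members called, against 44.2% of all genes.

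Cyr61 did not pass with the combination, at 114, 119.7 and 148 FPKM against 149.6, 149 and 146 FPKM in controls. One combination library reached the control range (log2 fold change -0.23, SE 0.127, limma adjusted p = 0.165). Amotl1 was at 20.8, 17.6 and 15.3 FPKM with the combination and at 22.5, 19.3 and 20.5 FPKM in controls (log2 fold change -0.21, SE 0.105, limma adjusted p = 0.121), and it passed as lower without the first combination library (limma adjusted p = 0.0197). Nuak2 was at 4.64, 3.83 and 4.25 FPKM with the combination and at 4.03, 3.73 and 3.84 FPKM in controls, with overlap (limma adjusted p = 0.374).

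The effect of the drug in irradiated cells came from the combination set against radiation. It changed 2 of 10 members, Cyr61 higher and Amotl1 lower, against 34.4% of all genes called, 17.2% higher and 17.3% lower. Groups did not overlap for 4 members, 1 higher and 3 lower, against 47.4% of all genes, 23.3% higher and 24.1% lower. Cyr61 was at 114, 119.7 and 148 FPKM with the combination and at 93.1, 92.5 and 99.3 FPKM with radiation alone, higher in every library (log2 fold change 0.41, SE 0.127, limma adjusted p = 0.0284). The Cyr61 call was lost without the first (limma adjusted p = 0.0757) or second (0.0797) radiation library or the third combination library (0.110). Amotl1 was at 20.8, 17.6 and 15.3 FPKM with the combination and at 25.3, 27.0 and 27.1 FPKM with radiation alone, lower in every library (log2 fold change -0.55, SE 0.105, limma adjusted p = 0.00206). That call held in all 20 other settings. Ctgf had a log2 fold change of -0.26 (SE 0.168, limma adjusted p = 0.266), which passed without the third combination library (limma adjusted p = 0.0440). Ankrd1, Amotl2 and Ajuba lay between 0.03 and 0.05. Lats2 (-0.09, limma adjusted p = 0.362) and Nuak2 (-0.17, limma adjusted p = 0.182) were lower without overlap but not called. Yap1 (0.06) and Wwtr1 (-0.15) overlapped.

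The effect of radiation in drug-treated cells came from the combination set against nintedanib. It changed 4 of 10 members, with Ctgf, Ankrd1 and Amotl2 lower and Nuak2 higher, against 5.55% of all genes called, 2.37% lower and 3.17% higher. The members' median log2 fold change was -0.25, against -0.01 for all genes. Groups did not overlap for 7 members, 1 higher and 6 lower, against 22.2% of all genes, 10.4% higher and 11.8% lower. Ajuba (log2 fold change -0.31, limma adjusted p = 0.112) and Lats2 (-0.18, limma adjusted p = 0.171) were lower without overlap but not called. Yap1 (-0.05), Wwtr1 (0.13) and Amotl1 (-0.14) overlapped.

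Amotl2 was at 34.5, 34.1 and 37.9 FPKM with the combination and at 54.7, 47.4 and 52.8 FPKM with nintedanib alone, far apart (log2 fold change -0.53, SE 0.0778, limma adjusted p = 0.00398). Nuak2 was at 4.64, 3.83 and 4.25 FPKM with the combination and at 3.29, 2.44 and 2.52 FPKM with nintedanib alone, higher in every library (log2 fold change 0.49, SE 0.0912, limma adjusted p = 0.0133). Both calls held in all 20 other settings. Ctgf was at 3.15, 3.23 and 5.20 FPKM with the combination and at 8.35, 6.68 and 7.55 FPKM with nintedanib alone (log2 fold change -0.83, SE 0.168, limma adjusted p = 0.0180), and the call was lost without the first (limma adjusted p = 0.0502) or second (0.0762) combination library. Ankrd1 was at 80.6, 77.2 and 86.3 FPKM with the combination and at 126, 103 and 107 FPKM with nintedanib alone (log2 fold change -0.45, SE 0.0831, limma adjusted p = 0.0123). It missed the threshold without the second combination library (limma adjusted p = 0.0550), where 2 members and 2.04% of all genes were called.

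Cyr61 was lower in every combination library than in every nintedanib library, with a log2 fold change of -0.45 that was not called (SE 0.127, limma adjusted p = 0.0637). It passed by voom on fragments (adjusted p = 0.0283), with a common sum (limma adjusted p = 0.0334), among protein-coding genes only (0.0394), without the second nintedanib library (limma adjusted p = 0.0435) and without the third combination library (0.0415).

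**Figure D4:**
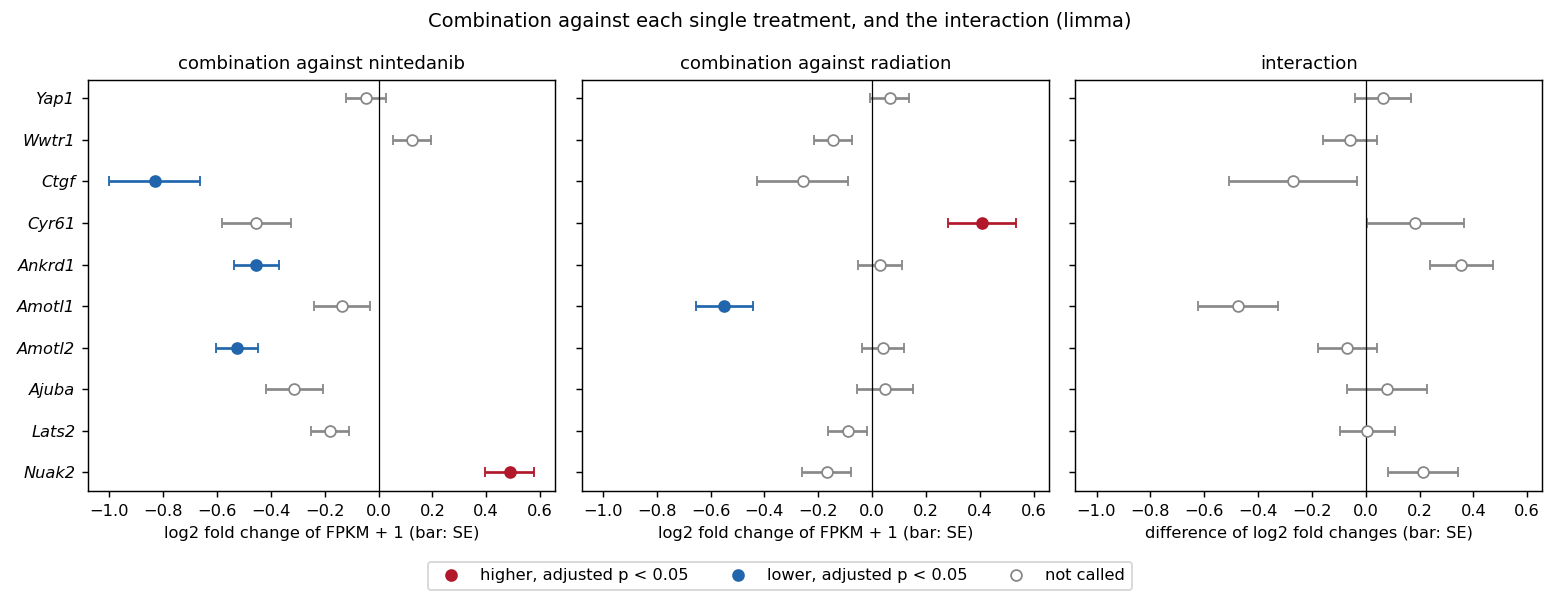
Log2 fold change of FPKM + 1 (bar: SE) of the 10 members for the combination against nintedanib and against radiation, and the difference between the drug's effects in irradiated and unirradiated cells (filled: adjusted p under 0.05; open: not called). Against nintedanib, Ctgf, Ankrd1 and Amotl2 are called lower and Nuak2 higher with the combination. Against radiation, Cyr61 is called higher and Amotl1 lower, and all interaction points are open.

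Whether drug and radiation effects added up was tested as an interaction: the drug's log2 fold change under irradiation, less that without it. With limma 0 of 10 members passed, and voom also called 0. Among all genes, limma called 1 (0.00769%), the immediate early gene Egr1, which was named after its values were seen. Voom called 20 genes, and the Egr1 call was lost in 12 of the 20 other settings (adjusted p from 0.00402 to 0.213 over all of them), among them the replicate block, the smaller pseudocount and the removal of any one control. The members nearest to a departure were Amotl1 (difference -0.47, SE 0.148, limma adjusted p = 0.269) and Ankrd1 (0.36, SE 0.118, limma adjusted p = 0.282). For Ankrd1 the drug's effect was 0.03 in irradiated cells and -0.33 in unirradiated cells, and for Amotl1 it was -0.55 in irradiated cells and -0.08 in unirradiated cells.

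Across the 4 groups, the order of mean levels differed by member. Cyr61 averaged 127 ± 18.2 FPKM with the combination, 175 ± 33.4 FPKM with nintedanib, 95 ± 3.78 FPKM with radiation and 148 ± 1.89 FPKM in controls (SD, n = 3 each), and neither nintedanib nor the combination passed against control, except nintedanib with a common sum. Ankrd1 averaged 81.4 ± 4.58 FPKM with the combination, 112 ± 12.6 FPKM with nintedanib, 79.7 ± 2.76 FPKM with radiation and 140.3 ± 5.40 FPKM in controls. Its combination and radiation groups overlapped, and their difference was not called (limma adjusted p = 0.819). Nuak2 averaged 4.24 ± 0.404 FPKM with the combination, 2.75 ± 0.468 FPKM with nintedanib, 4.88 ± 0.193 FPKM with radiation and 3.87 ± 0.149 FPKM in controls.

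For 4 members, the genes with the most similar levels over the 12 libraries were looked up among those tested, by Pearson correlation of log2(FPKM + 1), as a description. Libraries of a group share their treatment, so these correlations mostly reflect the order of 4 group means. Ankrd1 was followed most closely by Nppb (r = 0.969), which encodes B-type natriuretic peptide, then by Fitm2 (0.963), a lipid droplet protein gene, and Zfp692 (0.963). Nppb averaged 46.0 ± 5.29 FPKM with the combination, 69.5 ± 2.72 FPKM with nintedanib, 48.7 ± 4.63 FPKM with radiation and 105 ± 8.36 FPKM in controls, the same order of nintedanib and control above both irradiated groups as for Ankrd1. Cyr61 was most similar to Naa40 (0.990), an N-terminal acetyltransferase gene, Elovl1 (0.978), a fatty acid elongase gene, and Elof1 (0.965), a transcription elongation factor gene. Among the genes most similar to Nuak2 were the RNA-binding protein gene Khdrbs1 (0.956) and the ubiquitin ligase gene Traip (0.955). Ctgf was most similar to the sodium-proton exchanger gene Slc9a5 (0.933), the cyclin gene Ccne1 (0.919) and the septin gene Sept11 (0.907).

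The upstream Hippo genes were expressed, with 21 of 24 listed genes tested. In the combination 3 rose and 9 fell against control, with nintedanib 1 rose and 6 fell, and with radiation 1 rose and 1 fell. That is 57.1%, 33.3% and 9.52% of the list, against 47.2%, 41.6% and 17.9% of all genes called. After rescaling to a common sum of FPKM, 5 fell with the combination and 1, Rassf1, with nintedanib. The list's median log2 fold changes were -0.12, -0.08 and -0.10 in those comparisons, against -0.03, -0.02 and -0.04 for all genes. Lats1, the other LATS kinase gene, averaged 6.68 ± 1.15 FPKM with the combination, 8.72 ± 0.552 FPKM with nintedanib, 9.73 ± 0.265 FPKM with radiation and 10.8 ± 0.921 FPKM in controls (SD, n = 3 each). It fell with the combination (log2 fold change -0.63, limma adjusted p = 0.000369) and with nintedanib (-0.28, limma adjusted p = 0.0434), although the nintedanib call was lost under each of 3 other scalings. Rassf1, a scaffold that activates MST kinases, fell with the combination (-0.64) and with nintedanib (-0.74, limma adjusted p = 0.000216). Nf2, which encodes the Hippo activator merlin, fell with the combination (-0.45) and with nintedanib (-0.32, lost with a common sum). Amot, another angiomotin gene, rose with the combination (0.45, limma adjusted p = 0.00465) and with nintedanib (0.56, limma adjusted p = 0.00154). After radiation the genes that passed were Map4k4 (0.32), a kinase gene that rose, and Csnk1e (-0.35), a casein kinase gene that fell. With the combination Map4k4 rose too (0.25) and Csnk1e fell (-0.39). Csnk1e also fell with nintedanib (-0.24, lost with a common sum and by library totals). The MST kinase genes Stk3 and Stk4 were at 5.15 to 6.60 and 13.8 to 16.2 FPKM over all libraries.

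All 4 TEAD genes were expressed, whereas Vgll1 and Vgll2 were listed at 0 and Vgll3 reached 0.0391 FPKM. Tead1 had the highest levels (16.1 to 22.0 FPKM) and Tead3 the lowest (2.60 to 4.71 FPKM). Tead4 averaged 8.37 ± 1.06 FPKM with the combination, 8.19 ± 0.636 FPKM with nintedanib, 12.4 ± 0.920 FPKM with radiation and 13.4 ± 0.761 FPKM in controls (SD, n = 3 each). It fell with the combination (log2 fold change -0.62, limma adjusted p = 0.000236) and with nintedanib (-0.65, limma adjusted p = 0.000223). Tead2 rose with both (0.35 and 0.26), and Tead3 (0.30) and the cofactor gene Vgll4 (0.21) rose with nintedanib. The Vgll4 call was lost by voom (adjusted p = 0.0579). Of the 5 tested TEAD and VGLL genes, 40% were called with the combination, 80% with nintedanib and 0% with radiation, against 47.2%, 41.6% and 17.9% of all genes. After radiation 0 of the 5 passed by limma or voom. With a common sum 1 passed as higher.

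A wider set of 16 YAP/TAZ target genes outside the members, of which 13 were tested, did not move one way. In the combination 3 rose and 2 fell against control, with nintedanib 5 rose and 1 fell, and with radiation 2 fell and 11 did not pass. These are 38.5%, 46.2% and 15.4% of the tested genes, against 47.2%, 41.6% and 17.9% of all genes called. The medians were 0.01, 0.18 and -0.02, against -0.03, -0.02 and -0.04 for all genes. Those that fell after radiation were Tgfb2 (log2 fold change -0.62, limma adjusted p = 0.000468), which encodes a TGF-beta ligand, and the receptor kinase gene Axl (-0.37, limma adjusted p = 0.00611). Axl also fell with the combination (-0.34, limma adjusted p = 0.00252). Tgfb2 averaged 4.36 ± 0.429 FPKM with the combination, 5.92 ± 0.301 FPKM with nintedanib, 1.63 ± 0.10 FPKM with radiation and 3.04 ± 0.0984 FPKM in controls (SD, n = 3 each). It rose with the combination (0.41) and nintedanib (0.78) and fell with radiation. F3, the tissue factor gene, rose with the combination (1.21) and nintedanib (1.63), as did Ccdc80 (0.71 and 0.996), a matrix protein gene. Gadd45a fell with the combination (-2.23) and nintedanib (-2.70), and it responds to other stress pathways too.

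Of the 4 other CCN genes 3 were tested, and Nov was too low. Wisp2 rose with the combination (1.99) and with nintedanib (2.16), while 1.25 to 12.3 FPKM was its range over all libraries. Wisp1 fell with the combination (-0.26) and with nintedanib (-0.33), both lost with a common sum and the combination's also by library totals, and rose with radiation (0.35, limma adjusted p = 0.0164), whereas Cyr61 and Ctgf of the same family fell with radiation. SRF with its MRTF coactivators also controls Cyr61, Ctgf and Ankrd1. Of 12 genes of that group, 9 were tested, of which 5 rose and 1 fell with the combination, 5 rose and 1 fell with nintedanib, and 1 rose and 1 fell with radiation. These are 66.7%, 66.7% and 22.2% of those tested, against 47.2%, 41.6% and 17.9% of all genes. Srf itself fell after radiation (-0.41, limma adjusted p = 0.0406, lost with a common sum and by library totals), at 21.9 ± 1.81 FPKM against 29.6 ± 1.94 FPKM in controls (SD, n = 3 each), while the adhesion gene Vcl rose (0.38, limma adjusted p = 0.0444). Acta2 rose with the combination (1.15, limma adjusted p = 5.14e-05), and Tagln, Cnn1 and Myl9 stayed below 0.54 FPKM in every library.

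**Figure D5:**
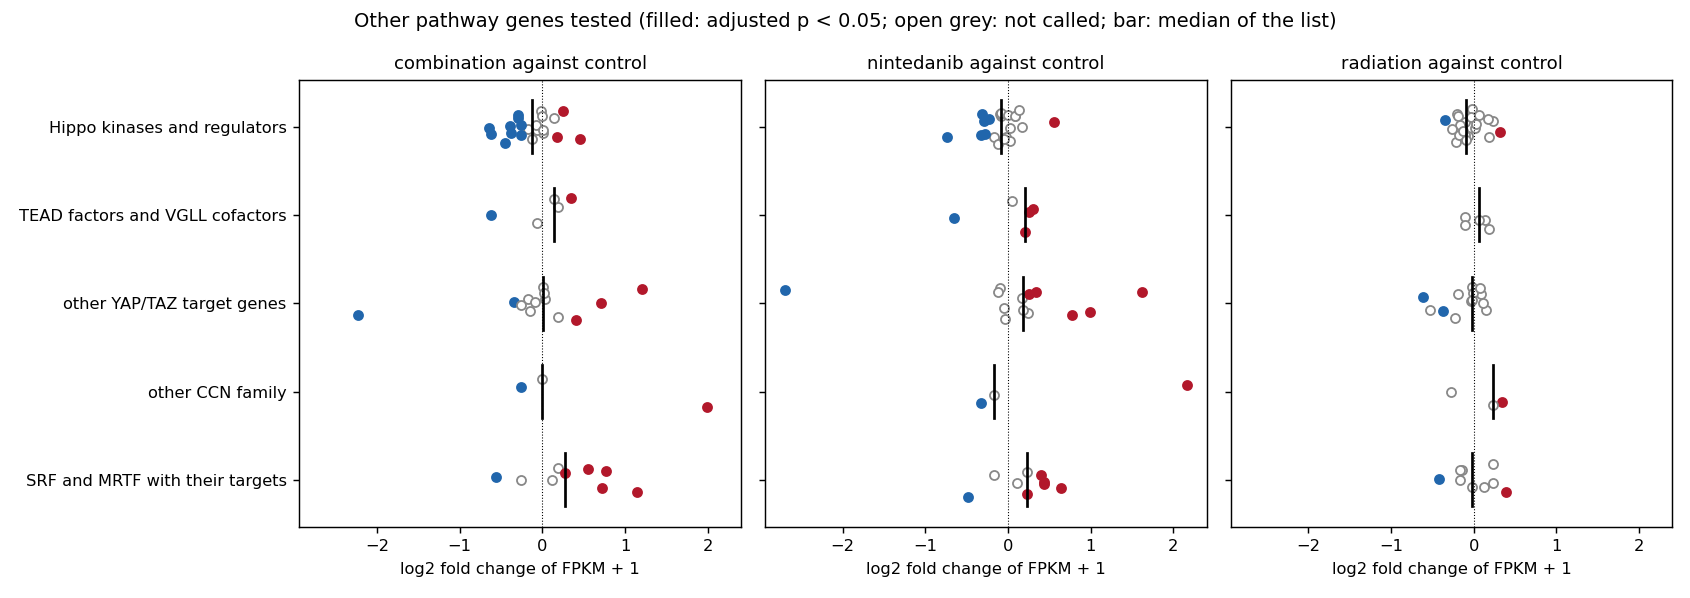
Log2 fold change of FPKM + 1 (horizontal axis) of the tested genes of 5 further lists for the combination, nintedanib and radiation against control (points: genes; filled: adjusted p under 0.05; bar: median of the list). The Hippo list has 9 genes lower with the combination, and the other YAP/TAZ target genes lie on both sides of 0.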

How the data were processed

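Gene expression was measured by RNA-seq in 12 libraries of MC38 cells, and groups and replicate numbers were taken from sample titles. The authors deposited FPKM values for 54532 genes, with coordinates and gene model lengths per the file headers. Per the submitters' processing notes, the genome was mm10 (GRCm38). Which aligner, counter and annotation release were used, and whether counting was stranded, is not stated in the labels or headers. Member coordinates are those of the table, and 9 of 10 were the same in GENCODE M21. Genes overlapping a member (8 in all, for Wwtr1, Amotl1, Yap1, Ctgf and Lats2) reached at most 3.10 FPKM. The highest were Gm20430 (3.10 FPKM) and Gm26440 (3.05 FPKM), on the opposite strand of Lats2. Those over other members reached at most 0.876 FPKM. How reads were divided between these genes and the members is not stated.

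Fragment counts were recovered because all nonzero values times length were whole multiples of 1 step (100%, tolerance 0.01). Fragments lack molecular identifiers, so depth covers counting error only. Limma 3.58.1 (R 4.3.3, empirical Bayes with trend, two-sided) was fitted to log2(FPKM + 1) of all 12 libraries with 8 residual degrees of freedom. This scale understates changes of low genes. The fit was checked on simulated data. Replicates of a group differed by more than sampling noise (chi-square per gene 4.30 to 30.2). The alternatives were another pseudocount (0.1), no filter, 3 scalings (1 added after seeing the data), voom, protein-coding genes only, a replicate block, and leaving out each library. Voom took the depth implied by the FPKM values as library size, so it keeps the scaling of those values and is no check on it.

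The members and the gene lists were chosen with earlier results of these data known. All members were named, and up to 4 genes per list and comparison with the smallest adjusted p, besides TEAD and Hippo kinase genes with their level. Some genes that these rules select are not reported here.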

Additional observations from a re-analysis of the deposited data

How the results depend on the processing

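All 19 called fold changes of members kept their direction in all 20 other settings, and the calls lost without single libraries are given above. With no filter on low values, where 30404 genes were tested, 3 members were called for radiation against control and 1 for the combination against radiation. The shares of all genes called in that setting were 5.77% and 13.2%. Leaving out 1 library gave 3 to 7 members called for radiation against control, 1 to 2 for the combination against radiation and 2 to 5 for the combination against nintedanib. The shares of all genes called were then 8.86% to 20.2%, 27.4% to 36.7% and 2.04% to 5.03%. Other counts stayed within 1.5 times. The causes were not tested. Same-numbered libraries of different groups did not deviate together (correlations -0.298 to 0.202, 3 of 18 pairs over 0.1), and 3 of 12 libraries were closest to their own number, so the numbers were not treated as pairs. With a replicate block 2 members were called for nintedanib, 4 for radiation and 5 for the combination against control, 2 for the combination against radiation, 4 for the combination against nintedanib and 0 for the interaction. In the same order, 39.1%, 13.8%, 44.5%, 31.3%, 3.41% and 0% of all genes were called under the block. Amotl1 and Ajuba missed the threshold for radiation under the block (adjusted p = 0.0709 and 0.0533). Rescaling to a common sum shifted the median interaction of all genes by -0.12.

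Sign changes occurred only in fold changes that were not called in either setting. For nintedanib against control, Yap1 had -1.46e-05 by voom and -0.0539 to 0.0613 without single libraries, and Ctgf had -0.118 to 0.152. Wwtr1 (0.00465), Amotl1 (0.0164) and Ajuba (0.0624) turned with a common sum, and Ajuba also by library totals (0.0285) and without single libraries (-0.105 to 0.0327). For the combination against control, Yap1 had 0.0155 with a common sum, 0.0180 by library totals and -0.101 to 0.0145 without single libraries, and Wwtr1 -0.00755 to 0.112. For the combination against radiation, a common sum gave -0.0128 for Ankrd1 and -0.000954 for Amotl2, and single libraries -0.0130 to 0.0660 for Ankrd1, -0.00522 to 0.108 for Amotl2 and -0.0246 to 0.138 for Ajuba. In the interaction, a common sum gave -0.0646 for Yap1, -0.0557 for Ajuba and -0.113 for Lats2. Lats2 also had -0.00679 by median ratios, -0.0399 by library totals and -0.0517 to 0.0762 without single libraries, and Wwtr1 -0.102 to 0.0173. Ctgf and Nuak2 rested on the fewest fragments, 162 to 455 and 170 to 356 per library, and the part of depth in their results was not tested.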
